A study of Mus musculus with 16 samples.

Results

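Cardiac and skeletal sarcomere genes were followed across RNA libraries that were labelled lung or liver of newborn Man1a2 mutant pups. The members were 10 gene symbols, 5 known from heart muscle (Myh6, Myl7, Tnni3, Tnnt2 and Actc1) and 5 known from skeletal muscle (Acta1, Ckm, Tnnc2, Myh3 and Myh8), of 25054 entries in the table. They were selected on their levels in these same libraries, so their differences between libraries of lung and liver content are given as a description with no test. The 2 groups of 5 were kept apart throughout.

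The sarcomere is the contractile unit of striated muscle, in which myosin motors of the thick filament pull on actin of the thin filament while the troponin complex sets the response to calcium. Heart and skeletal muscle use largely different members of the same families. The set of myosins, actins and troponins in an RNA sample can thus point to the striated muscle that contributed to it. Some members, such as Actc1 and Ckm, are made by both muscles in the newborn and do not tell them apart alone. In the mouse, cardiac muscle also surrounds the large pulmonary veins inside the lung, while hepatocytes, airway cells and alveolar cells are not known for sarcomeres. Skeletal muscle of a newborn still carries developmental myosins beside those of adult fibres.

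The study asked how gestational N-acetyl cysteine (NAC), an antioxidant, changed lung and liver RNA of Man1a2 mutants, with placebo (water) as the control. Man1a2 heterozygous parents on a C57BL/6J background received a NAC solution, of up to 1 g/kg body weight, or placebo from before breeding until delivery, and pups were watched every 8 h for 24 h. There were 4 pup groups: live wild type (WT), live Man1a2 heterozygous, dead Man1a2 heterozygous and dead Man1a2 null. Each pup group, treatment and labelled tissue had 1 library, 16 in all, made from RNA pooled over 3 experiments, or over 2 for the dead heterozygous pups. Status and genotype overlap only in part, since the live pups were WT or heterozygous and the dead pups heterozygous or null. Tissue of dead pups was taken upon death and that of live pups at 24 h. Status thus cannot be told apart from age at harvest.

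The labelled tissue was checked with Sftpc, the surfactant protein of alveolar type II cells, and Alb, the albumin of hepatocytes. A library was said to have lung content with at least 1000 counts per 1000000 counts (CPM) of Sftpc and under 1000 CPM of Alb, and liver content with at least 50000 CPM of Alb. By this rule 7 libraries had lung content, 8 had liver content and 1 was mixed. Content matched the label in 7 libraries and went against it in 8. The lung-content libraries were those labelled live WT NAC lung, live heterozygous NAC lung, dead heterozygous placebo lung, live WT placebo liver, live heterozygous placebo liver, dead heterozygous NAC liver and dead null placebo liver. The liver-content libraries were those labelled live WT placebo lung, live heterozygous placebo lung, dead heterozygous NAC lung, dead null NAC lung, live WT NAC liver, live heterozygous NAC liver, dead heterozygous placebo liver and dead null NAC liver. The mixed library was the one labelled dead null placebo lung, with 5553 CPM of Sftpc and 9280 CPM of Alb. Every library below is called by its label, and its content is given beside it. All 12 lung markers of a longer list were higher in every lung-content library than in every liver-content library, and all 12 liver markers were lower, where the lists include Sftpc and Alb, whose order the content rule fixed. Library totals ran from 7236865 to 16107749 counts, and the ribosomal RNA symbol Rn45s took between 0.85% and 26.19% of them.

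The sequences just before the RefSeq start sites of 4 members are shown here. The reason is that the cardiac and the skeletal actin gene, whose levels parted in these libraries, carry the same kind of promoter element. The CArG box, which is bound by serum response factor, a regulator of muscle genes, is in capitals. Bases are from RefSeq on GRCm38.p6, on the strand of the gene and 5′ to 3′, and bases that GENCODE places in an exon of the gene were left out. The stretches of Actc1 and Myh6 lie inside the GENCODE spans of these genes given below, since RefSeq and GENCODE differ on the start. The first is Actc1 (chr2:114052888-114052995, minus strand), followed by Acta1 (chr8:123894776-123894895, minus strand), Myl7 (chr11:5898783-5898902, minus strand) and Myh6 (chr14:54966642-54966727, minus strand).
Actc1: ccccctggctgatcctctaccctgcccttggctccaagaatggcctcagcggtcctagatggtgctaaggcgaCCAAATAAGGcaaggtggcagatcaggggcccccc
Acta1: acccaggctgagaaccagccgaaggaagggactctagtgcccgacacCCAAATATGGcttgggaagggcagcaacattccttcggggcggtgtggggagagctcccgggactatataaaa
Myl7: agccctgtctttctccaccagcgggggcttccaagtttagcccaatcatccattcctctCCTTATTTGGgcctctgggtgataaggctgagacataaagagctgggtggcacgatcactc
Myh6: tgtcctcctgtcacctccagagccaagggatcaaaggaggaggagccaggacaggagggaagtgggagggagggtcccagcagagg

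All 10 members had a RefSeq promoter window, which runs from 250 bases before to 50 bases after the RefSeq start. Distances here are from that start, which differs from the GENCODE start of the gene in Actc1, Acta1 and Myh6. A CArG box was found in the windows of 3 of the 10 members, Myl7, Actc1 and Acta1, against 1.63% of 32851 windows. Its first base lay 61 bases before the start in Myl7, 47 before it in Actc1 and 73 before it in Acta1. The search read both strands. A MEF2 site was found in 1 member, Myh8, against 3.19% of windows. TATAAA, searched as written on the gene's strand, was found in 4 members against 8.32%, and MCAT (CATTCC on either strand) in 4 members against 14.7%. The first base of TATAAA lay before the start in Myh3 (29 bases) and Acta1 (7 bases). In Myh6 and Actc1 it lay 1 and 33 bases after the start. Tnnt2 had 2 windows, while the shares are per window. TATAAA and a MEF2 site can share bases. Such matches describe letters in these windows and no binding was measured.

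Most of the cardiac members, but not all, had separate ranges in the lung-content and the liver-content libraries. Myh6, Myl7, Tnni3 and Tnnt2, 4 of the 10 members, were higher in each of the 7 lung-content libraries than in any of the 8 liver-content libraries. Of the 14184 genes that averaged 1 CPM or more, 36.9% showed the same order, and nothing is read from the count because the members were chosen by these levels. No skeletal member and not Actc1 showed it. With content set instead by the medians of the marker lists, which places the mixed library with liver, the count was 0. Within the libraries whose content matched the label, 3 of lung and 4 of liver content, the count was 5. With 1 library of a tissue pool, a larger share of muscle cells cannot be told apart from more RNA per muscle cell.

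Myh6 (chr14:54941921-54966927, GRCm38, minus strand) encodes the alpha myosin heavy chain, the motor of the atria and of the mature mouse ventricle. Its lowest, median and highest levels were 47.4, 105.2 and 259 CPM in the lung-content libraries, where the highest was live WT NAC lung and the lowest live heterozygous NAC lung. In the liver-content libraries it stayed at or under 0.283 CPM, with at most 3 counts in 7 of the 8. The mixed library had 129.5 CPM, inside the lung-content range.

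Myl7 (chr11:5896637-5898782, minus strand) encodes the atrial regulatory light chain of myosin. Its levels were 14.9, 38.9 and 74.0 CPM (lowest, median, highest) with lung content and 0.248, 0.423 and 0.674 CPM with liver content. The ratio of these medians was 92.0, and the mixed library had 33.5 CPM. Myl7 had more than 3 counts in every library, the fewest being 4, so the low level in the liver-content libraries was above the floor of 3 counts used here.

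Tnni3 and Tnnt2 encode the cardiac troponin I and the cardiac troponin T, the inhibitory and the tropomyosin-binding subunits of the calcium switch. Tnni3 (chr7:4518305-4524229, minus strand) had 4.98, 19.8 and 31.1 CPM with lung content and at most 0.321 CPM with liver content, again with at most 3 counts in 7 of the 8. Its exons overlap those of Dnaaf3 on the same strand, so part of its counts may belong to that gene. Tnnt2 (chr1:135836354-135852260, plus strand) had 15.2, 44.0 and 101.9 CPM with lung content and 1.37, 2.16 and 4.32 CPM with liver content. Tnnt2 was therefore never near 0, and its medians differed by a ratio of 20.4, the smallest among the 5 cardiac members.

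Actc1 (chr2:114047282-114053548, minus strand), the cardiac alpha actin, which fetal and newborn skeletal muscle also makes, was the cardiac member whose ranges overlapped. It had 42.0, 131.6 and 174 CPM with lung content and 0.202, 0.913 and 44.3 CPM with liver content. The overlap rested on 1 library at each side. Dead null NAC lung, with liver content, reached 44.3 CPM (95% interval 40.9 to 47.9, exact Poisson, counting error only), just above live heterozygous NAC lung at 42.0 CPM. Without either of these 2 libraries the count of members with separate ranges was 5 in place of 4. Live heterozygous NAC lung is also the library with the largest share of Rn45s, 26.19%, and with Rn45s left out of the totals the count was 5 as well.

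**Figure D1:**
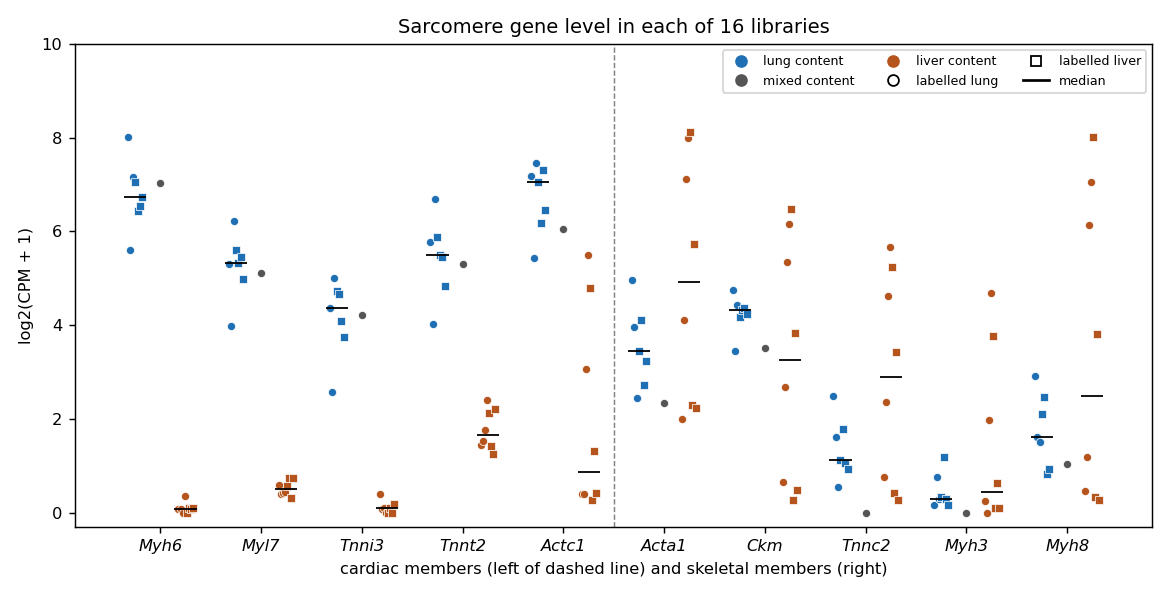
Level of each of the 10 members as log2(CPM + 1), with a point per library, coloured by marker content, shaped by labelled tissue, and a bar at the median of each content. Myh6, Myl7, Tnni3 and Tnnt2 lie apart in the lung-content and liver-content libraries, while the skeletal members spread from near 0 to 8 on this scale within liver content.

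Levels can be compared between genes only per exon length. In the lung-content libraries the median CPM per kilobase of exon was 81.3 for Actc1 and 66.0 for Myl7. It was 15.6 for Myh6, 9.59 for Tnni3 and 5.68 for Tnnt2. The short actin and light chain transcripts were thus the most abundant of the cardiac members per length. The order puts the atrial light chain above the myosin heavy chain it binds, although the union of exons counts bases that a given transcript may lack, as in Tnnt2 with 7752 exon bases.

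The skeletal members followed another order. Acta1, the skeletal alpha actin (chr8:123891769-123894751, minus strand), had 4.45, 9.99 and 30.2 CPM with lung content and 3.02, 34.4 and 278 CPM with liver content. The ranges overlapped, and the liver-content libraries alone spanned a ratio of 92.1. The 3 highest were live WT NAC liver at 277.9 CPM, dead null NAC lung at 253.3 CPM and dead heterozygous NAC lung at 137.5 CPM, each with liver content. They stood above dead heterozygous placebo liver at 52.5 CPM and live heterozygous placebo lung at 16.4 CPM. The remaining 3 liver-content libraries, live WT placebo lung, live heterozygous NAC liver and dead null NAC liver, had 3.02, 3.91 and 3.70 CPM.

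Myh8, the perinatal myosin heavy chain (chr11:67277124-67308634, plus strand), spread over a wide range. It had 0.768, 2.07 and 6.56 CPM with lung content. With liver content it had 0.202, 7.12 and 260 CPM, and the same 3 libraries were highest with 259.6 CPM in live WT NAC liver, 132.1 in dead null NAC lung and 69.5 in dead heterozygous NAC lung. The lowest liver-content library, dead null NAC liver, held 3 counts of it.

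Myh3, the embryonic myosin heavy chain (chr11:67078300-67102291, plus strand), was the scarcest member. It had at most 3 counts in 10 of the 16 libraries, and it was at 0 in live heterozygous placebo lung and in the mixed library. It reached 24.7 CPM in dead null NAC lung, 12.7 CPM in live WT NAC liver and 2.97 CPM in dead heterozygous NAC lung. The order of these 3 libraries differed from that of Myh8. The ratio of Myh3 to Myh8 counts was 0.187 in dead null NAC lung, 0.0490 in live WT NAC liver and 0.0427 in dead heterozygous NAC lung, so the embryonic myosin took a larger part in the library of the null pups. Each of these libraries is a single pool, so that difference has no replicate check.

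Tnnc2, the calcium-binding troponin C of fast fibres (chr2:164777161-164779967, minus strand), had 0.457, 1.19 and 4.64 CPM with lung content and 0.202, 6.96 and 49.8 CPM with liver content. The mixed library had no count of it, which allows up to 0.349 CPM at 3 counts. Dead null NAC lung was highest with 49.8 CPM, followed by live WT NAC liver with 36.9 CPM and dead heterozygous NAC lung with 23.8 CPM. Its exons overlap those of Ube2c on the other strand.

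Ckm, the muscle creatine kinase (chr7:19404776-19422841, plus strand), differed from the other skeletal members by its steady presence with lung content. It had 9.95, 18.9 and 25.8 CPM there, a ratio of 2.59 from lowest to highest, the narrowest of the 10 members. With liver content it had 0.202, 9.30 and 88.0 CPM and was again highest in live WT NAC liver (88.0), dead null NAC lung (70.4) and dead heterozygous NAC lung (39.5). Heart muscle also makes this enzyme. Over the 16 libraries, the Pearson r of log2(CPM + 1) was 0.74 between Ckm and Acta1 and 0.69 between Ckm and Actc1, as a description over libraries that share their content and pooled pups.

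**Figure D2:**
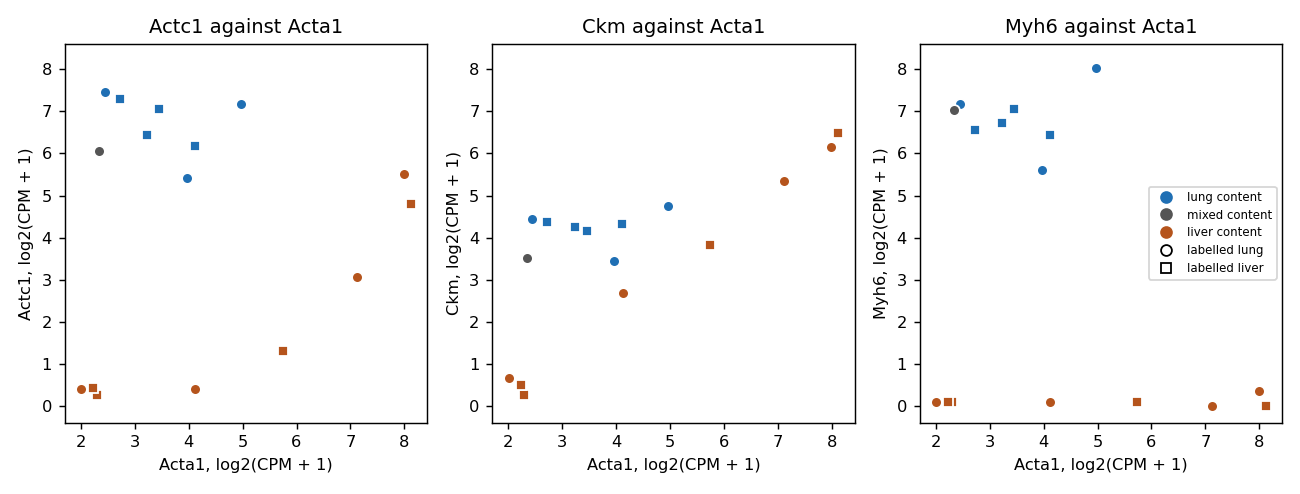
Actc1, Ckm and Myh6 against Acta1, each as log2(CPM + 1), with a point per library, coloured by marker content and shaped by labelled tissue. Among the liver-content libraries, Acta1, Actc1 and Ckm are highest in live WT NAC liver, dead null NAC lung and dead heterozygous NAC lung. Myh6 stays at or under 0.283 CPM in every liver-content library.

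Actc1 in the liver-content libraries was highest where the skeletal members were. It had 625 counts in dead null NAC lung, 380 in live WT NAC liver and 106 in dead heterozygous NAC lung. The other 5 liver-content libraries had from 3 to 24 counts, with the 24 in dead heterozygous placebo liver, the library next in skeletal level. In the 3 libraries with most Actc1, Myh6 had 4, 0 and 0 counts and Tnni3 had 0, 0 and 1. Some other genes of the cardiac list, but not all, were also higher in these 3 libraries. Myh7, which slow skeletal fibres share, was at 8.36, 17.5 and 7.39 CPM there and at most 0.316 CPM in the other 5. Mybpc3 was at 0.850, 0.0703 and 0.0691 CPM there, against 0.539 CPM in live heterozygous NAC liver. Asb2 was at 2.55, 4.99 and 5.66 CPM, against 8.67 CPM in live WT placebo lung. The member Tnnt2 had 61, 48 and 35 counts, against 54 in dead null NAC liver.

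Per exon length, Acta1 led the skeletal members in the 2 libraries with the highest levels. In live WT NAC liver it had 180.9 CPM per kilobase, against 46.1 for Tnnc2, 30.2 for Ckm, 22.1 for Myh8, 16.5 for the cardiac actin Actc1 and 2.10 for Myh3. In dead null NAC lung it had 164.9, against 62.3 for Tnnc2, 27.4 for Actc1, 24.2 for Ckm, 11.2 for Myh8 and 4.07 for Myh3. The 2 libraries shared the first place and the last, and they differed in the places of Myh8, Ckm and Actc1.

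The sums over each class separate these patterns. The 5 cardiac members together had 124.5 to 524 CPM with lung content and 2.66 to 49.2 CPM with liver content. The 5 skeletal members together had 27.2 to 67.3 CPM with lung content. With liver content they ran from 4.58 CPM in dead null NAC liver, 4.79 in live heterozygous NAC liver and 4.88 in live WT placebo lung, through 27.1 in live heterozygous placebo lung and 89.0 in dead heterozygous placebo liver, to 273.3 in dead heterozygous NAC lung, 530.1 in dead null NAC lung and 675.1 in live WT NAC liver. The ratio of the skeletal to the cardiac sum was at most 0.236 in each lung-content library and at least 0.944 in each liver-content library. Of the 3 libraries with the highest skeletal sums, 2 were labelled lung and 1 was labelled liver.

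**Figure D3:**
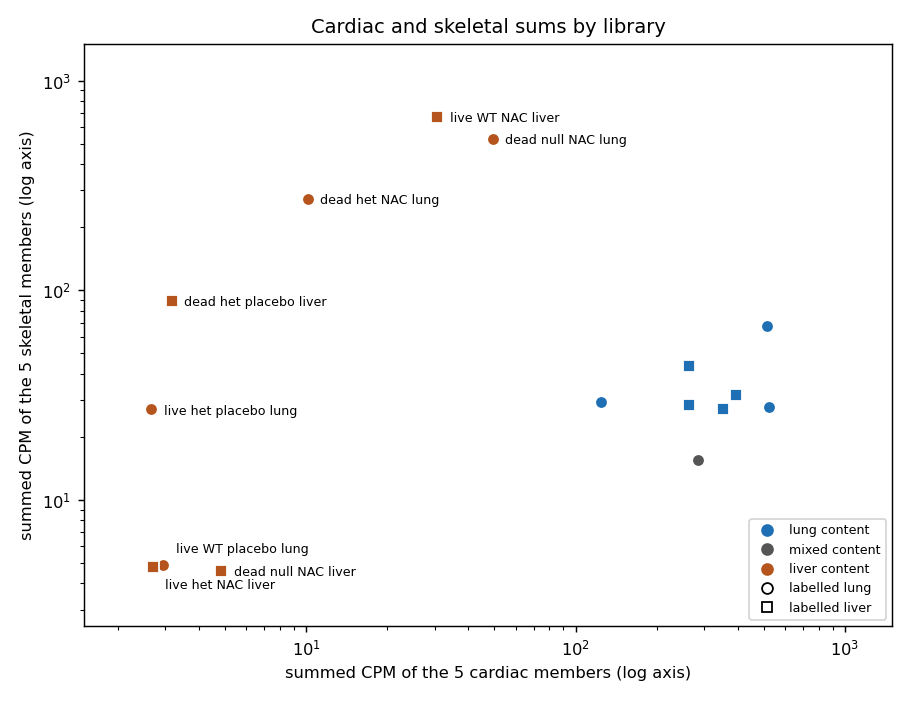
Summed CPM of the 5 skeletal members against that of the 5 cardiac members, both axes logarithmic, with a point per library (het, heterozygous), coloured by marker content, shaped by labelled tissue. The lung-content libraries lie together at 124.5 to 524 cardiac CPM, while the liver-content libraries spread from 4.58 to 675.1 skeletal CPM.

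The genes most like each class over the 16 libraries were looked up within that set of 14184. For the mean log2(CPM + 1) of the skeletal members, the 10 most alike were Tnnt3, Myl1, Myot, Mybpc1, Tnni2, Myoz1, Actn3, Atp2a1, Casq1 and Ckmt2, with Pearson r from 0.9898 down to 0.9389. All of them encode striated muscle proteins, among them the fast troponins T and I (Tnnt3 and Tnni2), a fast myosin light chain (Myl1), the Z-disc actinin of fast fibres (Actn3) and the calcium pump of the fast sarcoplasmic reticulum (Atp2a1). For the cardiac members, the 10 most alike were Nckap5, Cryab, Ly6a, Fhl1, Plxdc2, Chrnb1, Tgfb2, Cav1, Cox4i2 and Timp2, with r from 0.9929 down to 0.9905. Not all of this list are muscle genes: Cav1, the caveolar coat protein, had a median of 909.9 CPM with lung content, and Timp2, an inhibitor of matrix proteases, 230.8 CPM. Fhl1, Cryab and Chrnb1 had medians of 1044, 100.8 and 13.01 CPM there. Whether the listed genes followed heart muscle or other cells was not tested. All r are given without a p because the libraries fall into separate clusters.

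Among the members, Myh6, Myl7, Tnni3 and Tnnt2 had r between 0.97 and 0.99 with one another, and Acta1, Tnnc2, Myh3 and Myh8 between 0.86 and 0.99. Across these sets r was between -0.50 and -0.27. Actc1 had 0.83 to 0.89 with the cardiac set and -0.00 to 0.14 with the skeletal set.

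Other muscle genes, listed by muscle type, were described in the same way. Of 23 other cardiac genes, 20 had a mean of at least 1 CPM, and 6 of these had all lung-content libraries above all liver-content ones. Of all tested genes, 36.9% showed that order, so nothing is read from this count. Myh7, the slow myosin of the fetal ventricle and of slow skeletal fibres, had 12.0, 57.6 and 85.5 CPM with lung content and up to 17.5 CPM with liver content. Myl4, the atrial essential light chain, had 12.2, 48.9 and 86.4 CPM and 2.95, 5.27 and 8.43 CPM. The ventricular light chain Myl2 stayed at or under 1.5 CPM with lung content and was highest, at 3.90 CPM, in dead null NAC lung. Irx4, a ventricular transcription factor, was at 0 in all 16 libraries, and Nppa, the atrial natriuretic peptide, reached at most 0.913 CPM.

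Of 31 other skeletal genes, 29 were in the table under their symbols, 18 had a mean of at least 1 CPM and none had separate ranges in either direction. Mylpf, the fast regulatory light chain, was at 109, 75.1 and 48.3 CPM in dead null NAC lung, live WT NAC liver and dead heterozygous NAC lung, and at most 23.5 CPM in the other liver-content libraries. The summed level of the list was 481.9, 472.2 and 261.2 CPM in live WT NAC liver, dead null NAC lung and dead heterozygous NAC lung, against 16.8 to 108.4 CPM in the other 5. The myogenic factors Myod1, Myf5, Myf6 and Myog stayed under 1 CPM in every library. Of 15 genes shared by both striated muscles, 12 had a mean of at least 1 CPM and 1 had all lung-content libraries higher. The share over all tested genes was 36.9%. Titin (Ttn) had 10.4 to 66.1 CPM with lung content. With liver content it had 25.3, 20.2 and 11.7 CPM in the 3 libraries with high skeletal members and at most 3.54 CPM in the other 5.

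Markers of other cell types were set beside these values. The smooth muscle list had 7 of its 8 genes higher in all lung-content libraries, an order that 36.9% of all tested genes showed. Its summed level was 334.3 to 1013 CPM with lung content and 62.04 to 151.6 CPM with liver content, with the 3 libraries of high skeletal level at 125.2 to 151.6 CPM and dead null NAC liver, where the skeletal sum was lowest, at 133.9 CPM. The brown fat list stayed at 0.770 to 13.6 CPM with liver content. Its defining gene Ucp1 was at 0 in all 8 of these libraries, while Cidea was at 12.7 CPM in dead heterozygous placebo liver, 5.73 in dead heterozygous NAC lung, 3.12 in dead null NAC lung and 0.492 in live WT NAC liver. The lung markers summed to 68.6 to 94.99 CPM across the liver-content libraries, with 78.9 to 90.7 CPM in the 3 with high skeletal members. The squamous epithelium list summed to 0.696 to 11.5 CPM with liver content, and the thymus list, of which Rag1 made up most, to 7.44 to 22.5 CPM. Which tissue brought the skeletal muscle RNA was not tested.

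The comparison of NAC with placebo as labelled asks what the treatment did in each pup group and tissue, with 1 library per arm and no replicate check. In each of the 8 pairs 1 library had liver content and the other had lung content, or was mixed in the dead null labelled lung pair. All 5 cardiac members passed an absolute log2FC of at least 1 in 7 pairs, and 4 of 5 did in dead null labelled lung, where Actc1 had a log2FC of 0.12. The cardiac members were higher with NAC in the pairs labelled live WT lung, live heterozygous lung and dead heterozygous liver, and lower with NAC in the other 5. In each pair the direction of the cardiac members past the fold was that of the library with lung or mixed content, so treatment and content cannot be told apart here.

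A log2FC of at least 1 in either direction was common among all genes in these pairs. Its share was 56%, 60.4%, 51.3% and 47% in the pairs labelled lung, in the order live WT, live heterozygous, dead heterozygous, dead null. For labelled liver it was 50%, 50.4%, 52% and 55.9% in the same order. Tnnt2, with counts above the floor in every library, gave log2FC of 4.29, 2.71, -4.68 and -2.46 in these 4 pup groups, again for labelled lung. For labelled liver it gave -3.02, -4.02, 4.25 and -2.48. The sign thus turned between pup groups in both labelled tissues, with the sign of the content.

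All 5 skeletal members were higher with NAC past this fold in the pairs labelled live WT liver, dead heterozygous lung and dead null lung, the pairs whose NAC library was among the 3 of high skeletal level. Acta1 had 118 counts in the placebo library and 3954 in the NAC library of live WT labelled liver, a log2FC of 5.87. It had 39 and 1991 counts in dead heterozygous labelled lung (5.65) and 35 and 3575 counts in dead null labelled lung (6.64). In live WT labelled lung 4 of the 4 that averaged 1 CPM or more in the pair were higher with NAC past the fold. In live heterozygous labelled liver, dead heterozygous labelled liver and dead null labelled liver, 4 of 4, 3 of 4 and 1 of 2 such members were lower, and in live heterozygous labelled lung 1 of 4 was lower. The remaining members lay under that level in these pairs.

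Libraries of the same content allow a comparison over more than 1 library per arm. NAC was compared with placebo and dead with live pups in 1 additive edgeR quasi-likelihood fit each for lung content and liver content, with Benjamini-Hochberg adjustment over all genes. No member passed an adjusted p of 0.05 in any of the 4 comparisons. Across all genes tested, 13.3% passed for NAC with lung content and 0% for each of dead against live with lung content, NAC with liver content and dead against live with liver content. The counts at an unadjusted p under 0.05 in these last 3 were 507, 260 and 702 genes, and DESeq2 called 19, 1 and 45. How far the pools that share a content are independent is not known, and dead null NAC lung and dead null NAC liver, both of liver content, are of the same pup group and treatment and can hold RNA of the same pups.

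With lung content, 3 NAC libraries stood against 4 placebo libraries. The log2FC was 0.33 (SE 0.45, adjusted p = 0.632) for Myh6 and 0.24 (SE 0.33, adjusted p = 0.632) for Actc1. The largest was 1.05 (SE 0.49, adjusted p = 0.16) for Tnnc2, with mean levels of 2.60 CPM with NAC and 1.24 CPM with placebo. Of the 11 tested genes shared by both striated muscles, Nexn, an actin-binding Z-disc protein, fell with NAC, by 0.90 on the log2 scale (SE 0.23, adjusted p = 0.0371). No other listed striated muscle gene passed, where 13.3% of all genes tested did. Those 11 genes had a median log2FC of -0.27. The 8 smooth muscle genes had a median of -0.5, with none called. Whether Nexn followed striated or smooth muscle was not tested. The calls of this comparison over all genes were 0 without the live WT or without the live heterozygous libraries, so Nexn too rests on them.

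The dead and live pups of lung content differed in the order of 3 skeletal members, a pattern noticed after the values were seen. Ckm and Myh3 did not show it. Ckm had 18.0, 19.5 and 20.7 CPM in the dead libraries and from 9.95 to 25.8 CPM in the live ones. The dead pups were also harvested earlier than the live ones, so status and age at harvest cannot be told apart here. The paper reports a lower average RNA quality number for lung of dead pups than over all samples, though it calls that quality good. The part of RNA quality in this order was not tested. Acta1 had 4.45, 5.60 and 8.40 CPM in the 3 dead libraries and 9.99, 14.7, 16.3 and 30.2 CPM in the 4 live ones. Myh8 had 0.768, 0.905 and 1.83 CPM in the dead and 2.07, 3.30, 4.504 and 6.56 CPM in the live. Tnnc2 had 0.457, 0.905 and 1.10 CPM in the dead and 1.19, 2.07, 2.43 and 4.64 CPM in the live. All live libraries were thus above all dead libraries for 3 of the 10 members, which 1.3% of all genes showed. The opposite order, shown by 0.494% of genes, was shown by 0 of the 10 members. Acta1, Myh8 and Tnnc2 had r from 0.95 to 0.99 with one another over the 16 libraries, so they are not separate observations. Nothing is read from either count, because the members were chosen with earlier results of these data known. The mixed library, also of dead pups, had 4.07 CPM of Acta1, 1.05 CPM of Myh8 and no count of Tnnc2, inside or below the dead range. The counts were small, with 7 to 16 counts of Myh8 in each dead library, and the intervals of neighbouring libraries overlapped.

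The fit gave a dead-against-live log2FC of -1.75 for Myh8 (SE 0.50), -1.32 for Acta1 (SE 0.42) and -1.43 for Tnnc2 (SE 0.52), each with an edgeR adjusted p of 1. These differences did not hold up over all genes tested. Without the dead heterozygous libraries, which leaves 1 dead library, they were -1.76 for Myh8, -0.32 for Acta1 and -0.64 for Tnnc2. Ckm moved by 0.19 (SE 0.25), and the cardiac members lay between -0.03 for Myh6 and 0.61 for Actc1, with adjusted p = 1 in edgeR. Myh3 had a mean under 1 CPM in these libraries and was not tested.

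With liver content, 5 NAC libraries stood against 3 placebo libraries. The log2FC was 4.98 for Myh3 (SE 2.01), 4.58 for Myh8 (SE 2.29), 4.52 for Actc1 (SE 1.79), 2.80 for Ckm (SE 1.74), 2.73 for Acta1 (SE 1.58) and 2.28 for Tnnc2 (SE 1.54), with an edgeR adjusted p of 1 for each. The arms overlapped, since 2 of the 5 NAC libraries had skeletal sums of 4.58 and 4.79 CPM, among the lowest, and the placebo library dead heterozygous placebo liver had 89.0 CPM. Without the live WT libraries the log2FC was -0.07 for Acta1, -0.49 for Ckm and -0.31 for Tnnc2, so their direction rested on that pup group. Dead against live gave log2FC from 0.20 for Tnnt2 (SE 0.40) to 1.02 for Tnnc2 (SE 1.36). Myh6, Myl7 and Tnni3 had means under 1 CPM with liver content and were not tested.

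**Figure D4:**
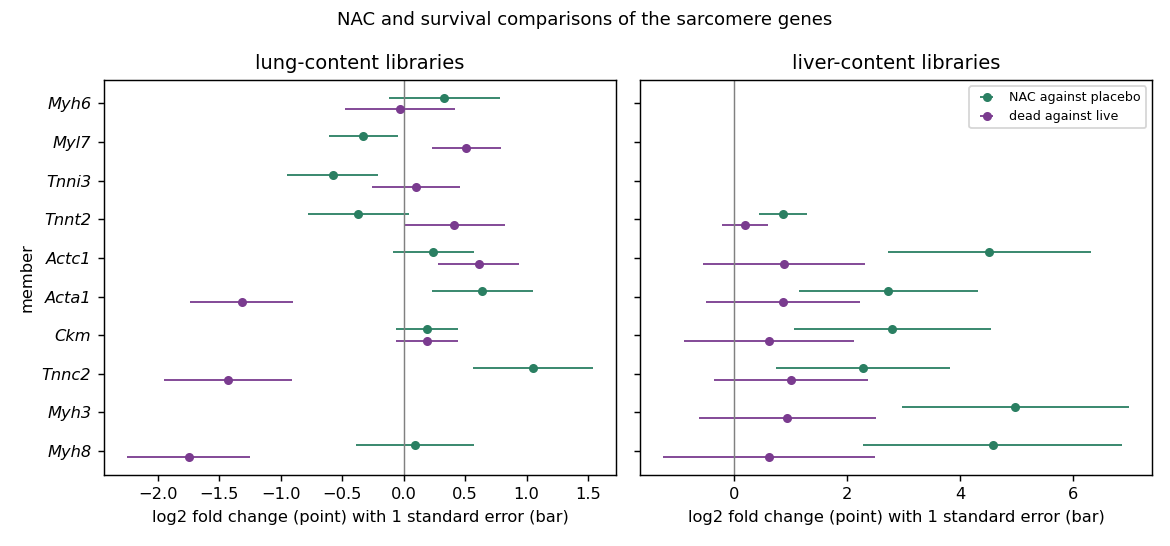
Log2 fold change (point) with 1 standard error (bar) of each tested member for NAC against placebo and for dead against live, in the lung-content libraries (left) and the liver-content libraries (right), on axes of different range. The liver-content standard errors of the skeletal members and Actc1 run from 1.36 to 2.29, and no member passed the adjusted threshold in either panel.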

How the data were processed

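RNA was sequenced from Illumina TruSeq stranded mRNA libraries. The authors trimmed adapters, used the Omicsoft Sequence Aligner against GRCm38 (Ensembl), kept uniquely mapped reads and deposited an estimated count per gene symbol, not normalized. Whether strand was used is not given in the sources used here. The submitters' processing notes name R 4.0.3 and edgeR 3.30.3.

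Between 6.5% and 8.24% of a library's values were not whole, and all were rounded, since the tests had been planned for counts. Positions are from GENCODE vM21. Pairs were compared with edgeR 4.0.16 in R 4.3.3 (TMM over 16 libraries, prior count 0.125, dispersion 0.04, absolute log2FC of at least 1), with no p. Within each content, glmQLFit and glmQLFTest took status and treatment, on genes averaging 1 CPM or more. At most 3 counts were the floor. Intervals are exact Poisson at 95% and cover counting error only. Named genes are the 10 members, examples of the lists and the 10 genes most like each class. The members and lists were chosen with earlier results of these data known. In each fit of data simulated at a dispersion of 0.04, 200 of 200 genes changed 8-fold were recovered with 9 to 12 false calls. That setting does not cover the spread of the members with liver content, whose standard errors reached 2.29. It therefore cannot show that such changes would have been called in them.

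Alternatives were other scalings and filters, DESeq2 1.42.0, pup group as a block, leaving out pup groups or libraries, and adding the mixed library. Leaving Rn45s out of the fits, keeping only libraries that match their label, and those on the order of dead and live libraries were chosen after seeing the data. P-values measure only the spread between these pools. Python 3.11.15, pandas 2.3.3, numpy 2.4.6, scipy 1.17.1 and matplotlib 3.10.9 were used.

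The result for 1 gene is not reported here.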

Additional observations from a re-analysis of the deposited data

Results flagged for a closer look

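In the pairs labelled lung, 4 cardiac members were higher with NAC in both live pup groups and lower in both dead pup groups. With counts at or under 3 set to that floor, the mean log2FC of the live pairs minus that of the dead pairs was 17.15 for Myh6 (8.71 against -8.44), 11.88 for Myl7 (5.43 against -6.46), 10.96 for Tnni3 (4.86 against -6.1) and 7.09 for Tnnt2 (3.51 against -3.58). The difference was not tested. In both live pairs the NAC library had lung content, and in both dead pairs the placebo library had lung or mixed content, so that live or dead status and content cannot be told apart in these values. No other member, and none in the pairs labelled liver, met the same criterion.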

How the results depend on the processing

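Precision was limited by the number of libraries, with 1 per labelled group and 3 to 5 per arm of a content. The count of members with separate ranges was 4, and 0 when content was set by the medians of the marker lists, since that put the mixed library with liver. It was 4 to 5 when any library was left out. The count of members called stayed at 0 in the 4 comparisons within content under each alternative run, and the counts past the fold in the 8 pairs stayed within 1.5 times. Over all genes, calls for NAC with lung content were 1866, against 0 without the live WT or without the live heterozygous libraries, 3722 without the dead heterozygous, 4085 without the dead null, 2745 by DESeq2, 2659 with no filter and 3585 with pup group as a block. For dead against live with lung content they were 0, and 212 without the dead heterozygous libraries, which leaves a dead arm of 1 library, assumed to vary like the others. Library size alone moved the members' log2FC in a pair by -1.07 to 0.7, library size without Rn45s by -1.11 to 0.81 and relative log expression factors by -0.1 to 0.13, and no direction past the fold turned.

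Some member values in the fits, none of them called, changed sign. With the mixed library added, Myh6 for dead against live with lung content was 0.07 and Tnnt2 for NAC with liver content was -1.06. Leaving out a pup group gave, for NAC with lung content, -0.42 to 0.80 for Myh6, -0.20 to 0.41 for Ckm and -0.75 to 0.49 for Myh8. For dead against live with lung content it gave -0.51 to 0.61 for Myh6, -0.15 to 0.75 for Myl7, -0.65 to 0.42 for Tnni3 and -0.52 to 0.80 for Tnnt2. For NAC with liver content it gave -0.07 to 3.99 for Acta1, -0.49 to 4.02 for Ckm and -0.31 to 3.07 for Tnnc2. For dead against live with liver content it gave -0.21 to 0.68 for Tnnt2, -0.01 to 3.66 for Acta1, -0.20 to 3.98 for Ckm, -0.10 to 7.05 for Myh3 and -0.85 to 5.60 for Myh8. The cause was not tested. Beyond the fit with pup group as a block, whose 3585 calls are given above and in which no member was called, no paired analysis was possible because the labels give no replicate numbers.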

Other observations

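Among genes outside striated muscle in the lung-content libraries, Slc4a1, the anion exchanger of the red cell membrane, rose with NAC by a log2FC of 1.5 (SE 0.31, edgeR adjusted p = 0.0257). Of the 7 erythroid genes tested, 2 passed. The globin genes did not, with log2FC from 0.04 for Hbb-bs to 0.48 for Hba-a2. Of 12 lung markers, Slc34a2, the phosphate transporter of alveolar type II cells, fell by 0.91 on the log2 scale (SE 0.25, edgeR adjusted p = 0.0468), and no other passed. The lists that hold these genes were chosen with earlier results of these data known. Over all genes tested, 13.3% passed, and the calls were 0 without the live WT or without the live heterozygous libraries.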
